A study of Mus musculus with 24 samples.

Results

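The interleukin-1 (IL-1) axis, its inflammasome and the itaconate-producing gene Irg1 were followed as a list of 10 genes, chosen by symbol, of which 9 were among the 14159 genes with a symbol in the deposited matrix. They were the cytokines Il1b and Il1a, the receptor antagonist Il1rn, the receptor Il1r1 and the decoy receptor Il1r2, the inflammasome genes Nlrp3 and Casp1, Irg1 (now named Acod1) and Tnf. The tenth, Il18, was not analysed here. Bulk RNA of the quadriceps was sequenced in 24 libraries, 3 in each of 8 groups, from female mice aged 6 to 8 weeks at surgery. The strains were C57BL/6 (B6) and MRL/MpJ (MRL), and each had an uninjured group and 3 groups with volumetric muscle loss (VML), in which a block of the muscle is cut out. The defect was given saline as the control injury, decellularized extracellular matrix (ECM, from porcine small intestine) or polyethylene (PE) powder, with collection 21 days after the injury. MRL is an inbred strain prone to autoimmunity and known for closing ear wounds with little scarring, and no group carried a transgene. The replicate numbers name libraries whose animals are not identified further in the labels, so p-values measure the spread between these libraries.

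IL-1 is a danger signal of innate immunity. Il1b and Il1a encode the agonists, which bind the receptor encoded by Il1r1 together with a partner chain and signal through the adaptor MyD88 to NF-kappaB, while the antagonist from Il1rn occupies the same receptor without signalling and the receptor from Il1r2 binds IL-1 without passing the signal on. IL-1 beta is made as an inactive precursor, and caspase-1, activated on the NLRP3 inflammasome, cleaves it, so the RNA level of Il1b says nothing about how much active cytokine is released. Irg1 encodes the mitochondrial enzyme that makes itaconate from cis-aconitate in activated myeloid cells, and Tnf encodes tumour necrosis factor, which induces many of the same inflammatory genes as IL-1. Particles that cannot be digested, such as PE wear debris, are known to drive a foreign body response rich in macrophages and neutrophils.

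In the annotation of GRCm39 (GENCODE vM39), all 9 are protein-coding genes. Il1b (chr2:129206490-129213059, minus strand) and Il1a (chr2:129140291-129152098, minus strand) are neighbours on chromosome 2, which also holds Il1rn (chr2:24226865-24241506, plus strand), and Il1r2 (chr1:40113239-40164391) and Il1r1 (chr1:40264174-40356417) lie near each other on the plus strand of chromosome 1. Irg1 is at chr14:103284413-103294009 (plus strand), Tnf at chr17:35418357-35420983 (minus strand), Nlrp3 at chr11:59432394-59457782 (plus strand) and Casp1 at chr9:5298508-5307290 (plus strand).

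Since several of these genes moved together across libraries, the 250 bases before their annotated starts were read from the RefSeq promoter table (all 9 genes matched, in 13 windows) and located in GRCm39 by exact match. The letters TATAAA, the core of a TATA box, were found in the windows of 4 of the 9 genes, Il1b, Il1a, Irg1 and Tnf, against 12.4% of all 32851 promoter windows searched on both strands. In these 4 genes they lay on the strand of the gene and began 31, 32, 28 and 29 bases before the RefSeq start, respectively, and 1.75% of all windows held them on that strand between 25 and 35 bases before the start, a distance chosen after these positions were seen. For Il1a and Irg1 the GENCODE gene begins upstream of the motif, so there the distance holds for the RefSeq start only. These 30-base stretches are shown because they put the motif, in capitals, at a like distance from the RefSeq start in the 4 genes.
Il1b: gctttttaggacTATAAAacaagggaggga
Il1a: cttgaggaagacTATAAAaaggcagagaag
Irg1: ggagtgactgtgTATAAAggcacacgtcca
Tnf: ttccccaagggcTATAAAggcggccgtctg
They lie at chr2:129213073-129213102 (Il1b, minus strand), chr2:129151907-129151936 (Il1a, minus strand), chr14:103284408-103284437 (Irg1, plus strand) and chr17:35420995-35421024 (Tnf, minus strand). For Il1b (chr2:129213060-129213309) and Tnf (chr17:35420984-35421233), whose RefSeq and GENCODE starts coincide, the whole window is shown in the direction of the gene, again with TATAAA in capitals.
Il1b: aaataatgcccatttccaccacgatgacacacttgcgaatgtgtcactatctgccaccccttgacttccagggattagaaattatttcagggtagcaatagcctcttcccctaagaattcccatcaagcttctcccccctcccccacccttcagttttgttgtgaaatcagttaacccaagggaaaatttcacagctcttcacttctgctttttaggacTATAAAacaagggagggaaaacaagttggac
Tnf: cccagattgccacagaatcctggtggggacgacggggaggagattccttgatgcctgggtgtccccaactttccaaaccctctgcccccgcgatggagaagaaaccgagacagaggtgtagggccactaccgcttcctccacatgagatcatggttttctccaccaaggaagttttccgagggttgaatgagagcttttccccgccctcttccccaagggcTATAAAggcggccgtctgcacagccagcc
Other motifs were searched on both strands of the same windows, and their matches may overlap each other. The NF-kappaB consensus, searched with its usual ambiguity codes, was present for 2 of 9 genes (Il1r1 and Nlrp3, each in 1 of their 2 windows) against 3.9% of all windows. The AP-1 letters TGANTCA were present for 2 (Il1a and Il1rn) against 6.75%, and the C/EBP letters TTNNGNAA for 6 against 36.8%. For every motif, TATAAA included, a gene was counted if any of its windows matched, whereas the shares are per window. Genes with several windows (Il1rn, Il1r1 and Nlrp3) thus had more chances of a match than the shares reflect. A match describes these letters only and is not a site shown to be bound.

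The sample titles name the tissue as muscle. All 8 skeletal muscle fibre markers were measured, and their summed level lay between 29728 and 193641 CPM over the libraries (CPM, counts scaled to a common library size). One library stood apart. Replicate 2 of the PE-treated MRL group correlated with replicates 1 and 3 at 0.812 and 0.827 across genes, whereas these 2 correlated at 0.966 and the replicate pairs of the other groups at 0.904 to 0.976. Of 60 genes that separated the strains most in the 18 libraries without PE, 59 in that library and 60 in each of the other 5 PE libraries were nearer to the mean of the labelled strain, so its strain label held. It had the lowest muscle fibre sum of all libraries, 29728 CPM against 114894 and 114561 in replicates 1 and 3, and the highest fibroblast sum, 16368 against 2482 and 1863 CPM (summed over Col1a1, Col1a2, Col3a1, Pdgfra and Dcn). Comparisons of its group with PE-treated B6 mice and with saline-treated and uninjured MRL mice are given with and without it. In the fit of all 24 libraries it also enters the SE of every other comparison. Those that do not contain its group are not given with it alone left out. For Il1rn the SD was 4.45 log2 CPM in PE-treated and 0.10 in saline-treated MRL libraries.

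Of the 9 genes, 6 rose with PE over the control injury in B6 mice, namely Irg1, Il1rn, Il1b, Tnf, Casp1 and Il1a, against 5.97% of all genes called and 5.37% called higher (limma, Benjamini-Hochberg adjusted p below 0.05). With quantile normalization 685 of 973 calls over all genes were higher, in place of 760 of 845. In MRL mice 0 of 9 were called in the same comparison, where 0% of all genes were called, although 2 of the 9 and 23.3% of all genes had an unadjusted p below 0.05. Between the strains under PE, 3 were lower in MRL mice (Irg1, Il1b and Il1a), against 3.35% of all genes called and 1.74% called lower. The SE comes from all groups and so understates the spread of the PE-treated MRL libraries. For Irg1 the SD was 4.09 log2 CPM there, 1.36 in PE-treated B6 mice and at most 1.46 in groups without PE. A fit of the compared groups alone called 0 of 9, with its count over all genes given at the end. The median log2 fold change of the 9 genes was 2.76 for PE minus saline among B6 libraries and 1.01 among MRL libraries, and it was -1.89 for MRL minus B6 under PE, beside medians of 0.02, 0.05 and -0.02 over all genes. These comparisons share their PE or saline libraries with each other. In bulk tissue, more cells of a type and more RNA per cell cannot be told apart.

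**Figure D1:**
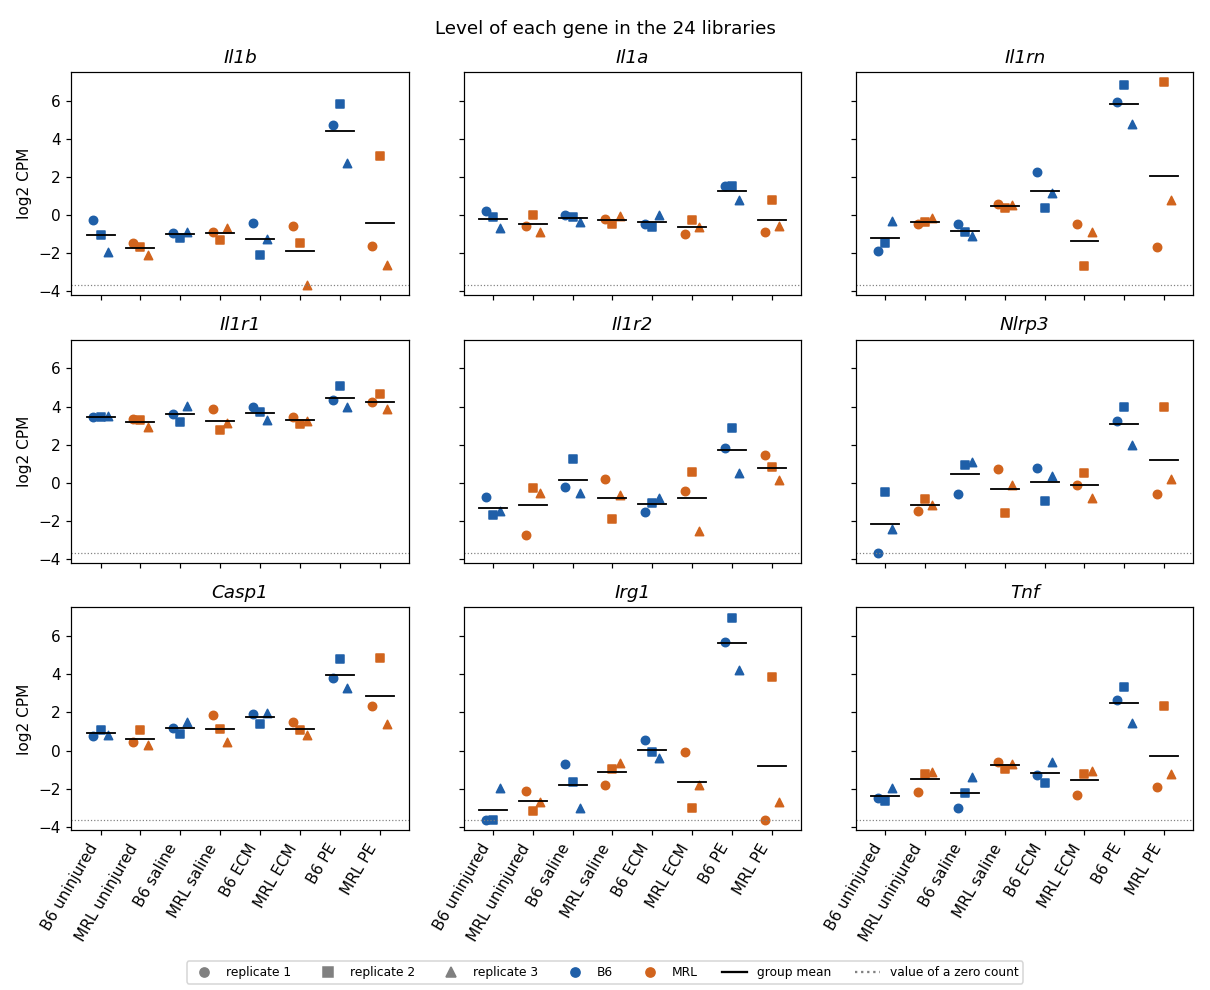
Level of each of the 9 genes (y axis, log2 CPM) in each library of the 8 groups (x axis), with marker shape for the replicate number, colour for the strain, a black line for the group mean of 3 libraries and a dotted line for the value of a zero count. The mean of PE-treated B6 libraries is the highest of the 8 groups for each of the 9 genes, but their range is clear of the group next in order only for Il1a and Irg1. Among PE-treated MRL libraries replicate 2 (square) lies far above replicates 1 and 3 for Il1b, Il1rn, Irg1, Tnf and Nlrp3.

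Il1b, the secreted agonist that needs processing, was at -0.96, -1.19 and -0.87 log2 CPM in the 3 saline-treated B6 libraries and at 4.73, 5.79 and 2.71 in the 3 PE-treated ones. The groups did not overlap, which held in the higher direction for 18.7% of all genes in this comparison, and the change was 5.42 ± 1.08 on the log2 scale (SE, adjusted p = 0.0194). In PE-treated MRL mice Il1b was at -1.64, 3.08 and -2.61, so replicate 2 was near the B6 libraries and replicates 1 and 3 were below every saline-treated MRL library (-0.88, -1.30 and -0.67). The mean of these 3 libraries was 0.56 ± 1.08 above saline (SE, adjusted p = 0.771) and 4.80 ± 1.08 below PE-treated B6 mice (adjusted p = 0.0151), with overlapping groups. In linear units, Il1b averaged 29.4 ± 24.6 CPM (SD, n = 3) in PE-treated B6 mice and 0.42 ± 0.055 after saline, and its mean was at or below 0.452 CPM in every group without PE.

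Il1a, the agonist that is active without caspase-1, moved over a smaller range. Its level was -0.01, -0.12 and -0.35 log2 CPM after saline and 1.51, 1.54 and 0.78 with PE in B6 mice, without overlap, a rise of 1.44 ± 0.41 (SE, adjusted p = 0.0461). PE-treated MRL libraries were at -0.88, 0.77 and -0.59, all below the lowest PE-treated B6 library, replicate 2 by the smallest of margins. The strain difference was -1.51 ± 0.41 with an adjusted p = 0.0499, which became 0.0546 when replicate number was fitted as a block. Such a pairing was only hinted at by the PE libraries of both strains, since the labels name no shared batch. In the order of group means PE-treated B6 mice stood apart from the next group, saline-treated B6 mice, and each later neighbour in the order overlapped with the next.

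Il1rn, the antagonist, rose in B6 mice from -0.46, -0.89 and -1.08 log2 CPM after saline to 5.91, 6.79 and 4.80 with PE. This was a change of 6.64 ± 1.30 (SE, adjusted p = 0.0177), with groups far apart. The 3 MRL libraries with PE covered nearly the whole range of the series, with -1.67, 6.97 and 0.78, against 0.56, 0.37 and 0.52 after saline. Neither PE minus saline in MRL mice (1.54 ± 1.30, adjusted p = 0.466) nor the strain difference under PE (-3.80 ± 1.30, adjusted p = 0.115) was called. Il1rn also separated groups without PE. ECM-treated B6 libraries (2.25, 0.36 and 1.17) lay above all 3 saline-treated ones, ECM-treated MRL libraries (-0.44, -2.66 and -0.91) lay below all 3 saline-treated MRL ones, and the MRL minus B6 difference was 1.30 ± 1.30 after saline and -2.60 ± 1.30 with ECM. None of these was called (adjusted p = 1, 1, 0.734 and 0.403), nor was the difference between the strains in ECM minus saline (-3.89 ± 1.84, adjusted p = 1). Groups lay apart in the same direction for 4.53% of all genes in ECM minus saline in B6 mice, 5.68% in MRL mice, 7.48% in MRL minus B6 after saline and 12.8% with ECM.

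Neither receptor gene was called for PE minus saline in either strain. Il1r1, the signalling receptor, expressed by fibroblasts and endothelium as well as by leukocytes, was at 3.59, 3.18 and 4.05 log2 CPM after saline and 4.36, 5.05 and 3.99 with PE in B6 mice, and at 3.84, 2.77 and 3.12 against 4.26, 4.63 and 3.86 in MRL mice. The B6 groups overlapped and the MRL groups just did not. PE minus saline was 0.86 ± 0.30 in B6 mice (adjusted p = 0.084) and 1.01 ± 0.30 in MRL mice (adjusted p = 0.113), and the difference between these was 0.14 ± 0.42 (SE, adjusted p = 0.997). Over the 8 groups its mean went from 3.20 in uninjured MRL to 4.47 in PE-treated B6 mice, and every pair of neighbours in that order overlapped. The decoy Il1r2 was at -0.22, 1.27 and -0.54 after saline and 1.84, 2.86 and 0.54 with PE in B6 mice, and at 0.23, -1.92 and -0.63 against 1.43, 0.81 and 0.13 in MRL mice. Its PE minus saline difference was 1.57 ± 0.81 in both strains (adjusted p = 0.23 in B6 and 0.243 in MRL mice), with overlapping groups in each.

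Of the inflammasome genes, Casp1, the protease that cleaves the IL-1 beta precursor, rose and Nlrp3, the sensor, was not called. Casp1 was at 1.21, 0.88 and 1.50 log2 CPM after saline and 3.81, 4.79 and 3.28 with PE in B6 mice, a change of 2.76 ± 0.59 (SE, adjusted p = 0.0208). In MRL mice with PE it was at 2.35, 4.83 and 1.41, against 1.84, 1.12 and 0.47 after saline, so all 3 were above the saline median but replicate 3 lay within the saline range (1.72 ± 0.59, adjusted p = 0.126). Nlrp3 was at -0.60, 0.94 and 1.10 after saline and 3.26, 3.99 and 1.98 with PE in B6 mice. These groups did not overlap, yet the difference of 2.59 ± 0.98 had an adjusted p = 0.11. Nlrp3 was low in uninjured B6 muscle (-3.65, a zero count, -0.45 and -2.41), and PE minus uninjured was 5.25 ± 0.98 (adjusted p = 0.00294). In PE-treated MRL mice Nlrp3 was at -0.56, 3.95 and 0.18, so replicate 2 was close to the highest B6 library and the others lay within the saline range of MRL mice (0.72, -1.58 and -0.09).

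Irg1 had the largest fold change of the 9 genes in B6 mice. It was at -0.70, -1.65 and -3.02 log2 CPM after saline, 0.57, -0.08 and -0.40 with ECM and 5.70, 6.96 and 4.24 with PE, and it had a zero count in 2 of the uninjured libraries, with the other at -1.95. PE minus saline was 7.42 ± 1.32 (SE, adjusted p = 0.0108), a 171-fold difference on this scale, which adds a prior count and so understates the fold of a gene this low in the control. Read by its linear level, Irg1 averaged 64.9 ± 53.8 CPM (SD, n = 3) with PE and 0.273 ± 0.247 after saline. ECM-treated B6 libraries lay above all saline-treated ones, but the difference of 1.82 ± 1.32 was not called (adjusted p = 1). In PE-treated MRL mice Irg1 was at -3.65 (a zero count), 3.87 and -2.67, all 3 below the lowest PE-treated B6 library, and the strain difference was -6.45 ± 1.32 (adjusted p = 0.00718). The saline-treated MRL libraries, at -1.78, -0.94 and -0.64, were above replicates 1 and 3 of the PE-treated ones.

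Tnf was at -3.03, -2.22 and -1.40 log2 CPM after saline and 2.66, 3.34 and 1.45 with PE in B6 mice, a rise of 4.70 ± 0.80 (SE, adjusted p = 0.00999). PE-treated MRL libraries were at -1.90, 2.34 and -1.25, with replicate 2 inside the B6 range and the others below the saline-treated MRL libraries (-0.57, -0.97 and -0.68). The strain difference under PE, -2.75 ± 0.80, was not called (adjusted p = 0.0641). After saline, where the direction was the opposite, all MRL libraries were above all B6 libraries (1.48 ± 0.80, adjusted p = 0.44).

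Exact permutation tests of single genes, 3 libraries against 3, cannot give a 2-sided p below 0.10. That value was reached for 7 of the 9 genes in PE minus saline in B6 mice (all but Il1r1 and Il1r2), for 1 in MRL mice (Il1r1), and for 2 in MRL minus B6 under PE (Il1a and Irg1), that is, wherever the groups did not overlap. For PE minus saline the groups lay apart in the higher direction for 18.7% of all genes in B6 and 10.8% in MRL mice. In MRL minus B6 under PE they lay apart in the lower direction for 7.59%.

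**Figure D2:**
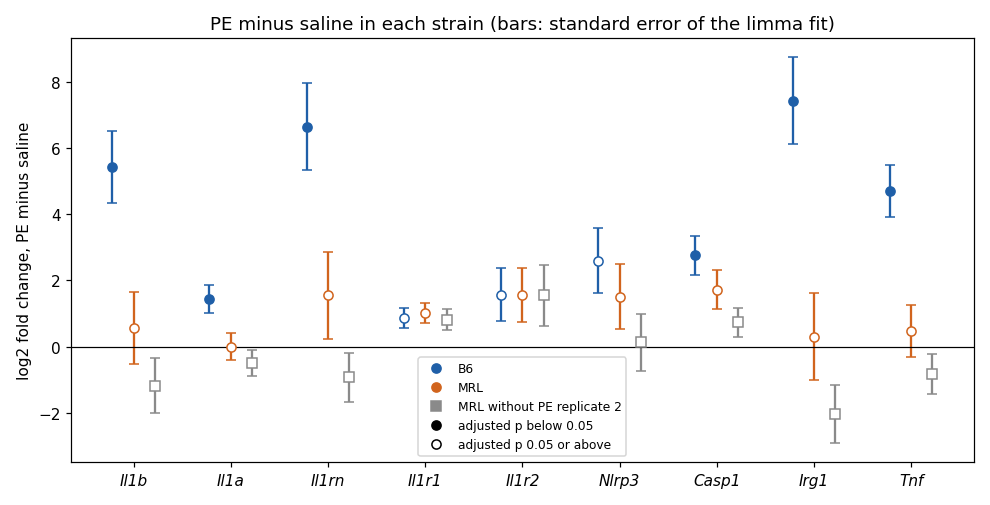
PE minus saline for each of the 9 genes (x axis) as a log2 fold change (y axis) with its standard error from the limma fit, in B6 mice (blue), in MRL mice (orange) and in MRL mice without replicate 2 of the PE group (grey squares), with filled symbols for an adjusted p below 0.05. In B6 mice 6 genes were called, and in MRL mice 0 were called with or without replicate 2, where Il1b, Il1a, Il1rn, Irg1 and Tnf lay below 0 once it was left out.

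Whether PE changed the genes differently in the strains was tested as the difference of the 2 changes. With all libraries, 0 of 9 genes and 0% of all genes were called. The difference, MRL minus B6, was -7.12 ± 1.86 for Irg1, -5.10 ± 1.84 for Il1rn, -4.86 ± 1.53 for Il1b, -4.23 ± 1.13 for Tnf and -1.43 ± 0.58 for Il1a (SE, adjusted p = 0.988 for each). These 5 genes had an unadjusted p below 0.05, as did 4.34% of all genes. Without replicate 2 of PE-treated MRL mice, 5 of 9 genes were called lower, namely Irg1 (-9.46 ± 1.17, adjusted p = 0.000159), Il1rn (-7.57 ± 0.99), Tnf (-5.53 ± 0.81), Il1b (-6.59 ± 1.12) and Il1a (-1.94 ± 0.52, adjusted p = 0.0401). Over all genes 4.41% were called in either direction in this fit (625, of which 95 were higher). Casp1 (-2.03 ± 0.59, adjusted p = 0.0564) and Nlrp3 (-2.47 ± 1.15, adjusted p = 0.257) were not, and the receptor genes differed by -0.05 ± 0.43 (Il1r1) and -0.02 ± 1.23 (Il1r2). For PE minus ECM the strain difference was called for 0 of 9 genes and 0% of all genes, with an unadjusted p below 0.05 for 4 of 9 (Il1b, Il1a, Irg1 and Tnf) and 3.69% of all genes. For saline minus uninjured and ECM minus saline it was called for 0 of 9 as well, with an unadjusted p below 0.05 for 0 and 1 (Il1rn), against 4.03% and 2.26% of all genes.

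The direct strain comparison under PE depended on the same library. Without it 7 of 9 genes were lower in MRL mice, against 24.6% of all genes called in either direction (3490, of which 1500 were higher). Irg1 then differed by -8.79 ± 0.87, Il1b by -6.54 ± 0.84 and Il1rn by -6.27 ± 0.74 (SE, adjusted p = 1.12e-06, 1.87e-05 and 8.03e-06). Tnf (-4.05 ± 0.61), Nlrp3 (-3.27 ± 0.86), Casp1 (-2.08 ± 0.44) and Il1a (-2.01 ± 0.39) made up the rest. Without replicate 1 or replicate 3 of the same group 0 of 9 were called, against 1.65% and 1.89% of all genes. Without B6 PE replicate 1 or 2 the count was 1 (Irg1), against 1.67% and 2.08% of all genes, and without B6 PE replicate 3 it was 2 (Il1b and Irg1), against 2.23%. The sign of the difference was negative in each of the 6 fits that left out a PE library for 8 of the 9 genes, Il1r1 being the exception at 0.072 without B6 PE replicate 2.

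**Figure D3:**
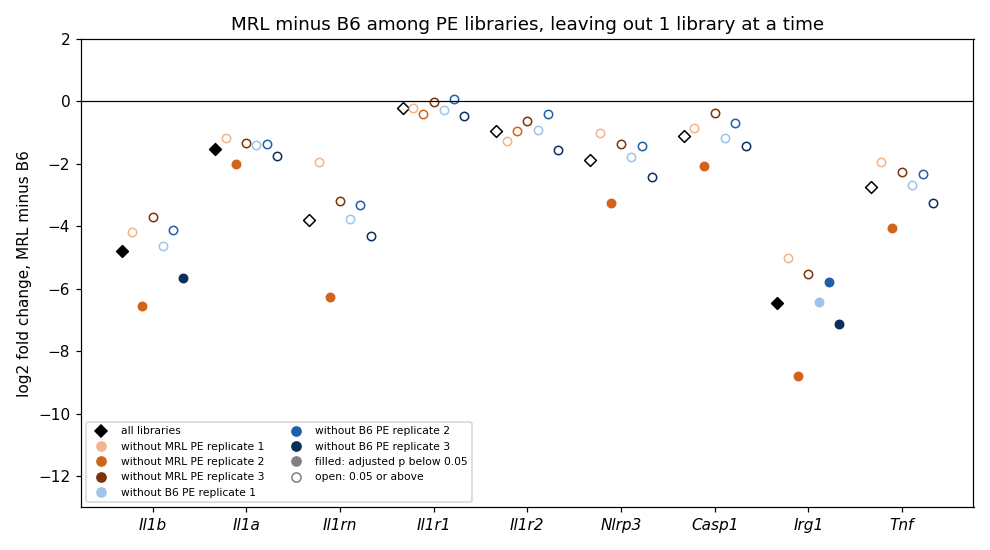
MRL minus B6 among PE-treated mice for each of the 9 genes (x axis) as a log2 fold change (y axis), with all libraries (black diamonds) and with 1 PE library left out at a time (circles), filled where the adjusted p was below 0.05. Leaving out replicate 2 of PE-treated MRL mice gave the lowest values for Irg1, Il1b, Il1rn, Tnf, Nlrp3, Casp1 and Il1a, and Irg1 lay between -8.79 and -5.03.

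In B6 mice the size of the PE response held when single libraries were left out, while the calls did not. PE minus saline ranged from 6.76 to 8.12 for Irg1, 6.16 to 7.16 for Il1rn, 4.73 to 6.27 for Il1b, 4.27 to 5.21 for Tnf, 2.35 to 3.10 for Casp1 and 1.31 to 1.68 for Il1a. The number of these genes called was 0 without B6 PE replicate 1 and 0 without replicate 2, where 0.0494% and 0.0141% of all genes were called, and 1 (Tnf) without B6 saline replicate 2 or 3, against 0.162% and 0.261%. It was 4 (Il1b, Il1rn, Irg1 and Tnf) without B6 saline replicate 1, against 0.89%. Without B6 PE replicate 3, which had the lowest level of each of the 9 genes in its group, 7 were called, Il1r1 included, against 9.05% of all genes.

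Against uninjured muscle, 9 of 9 genes were higher with PE in B6 mice, where 24.8% of all genes were called and 14.7% called higher. The differences ran from 1.01 ± 0.30 for Il1r1 to 8.72 ± 1.32 for Irg1 on the log2 scale (SE, adjusted p = 0.0227 and 0.00152). The count was 6 to 9 when 1 library was left out, and it was lowest without B6 PE replicate 2 (3.76% of all genes called), where Il1a, Il1r1 and Il1r2 were not called. Il1r1 was called in 2 and Il1a in 3 of the 6 such fits. Rescaling the libraries to equal totals made 3754 of 4305 calls over all genes higher, and quantile normalization 1811 of 3830, in place of 2086 of 3508. In MRL mice 2 of 9 were higher, Casp1 (2.25 ± 0.59, adjusted p = 0.0448) and Il1r1 (1.05 ± 0.30, adjusted p = 0.0463), against 9.73% of all genes called and 5.95% called higher. Both calls were lost without MRL PE replicate 2, where 0.00706% of all genes were called, and without MRL uninjured replicate 1 or 3, where 0% were. Without MRL uninjured replicate 2 Casp1 was called and Il1r1 was not, against 7.69% of all genes, and without MRL PE replicate 1 the count was 4, against 20.3%. With equal totals 1951 of 2075 calls over all genes were higher, in place of 842 of 1377.

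PE was also compared with ECM, the degradable implant. In B6 mice all 9 genes were higher with PE in every library, which held for 19.5% of all genes, but only Il1b was called (5.66 ± 1.08, adjusted p = 0.0443), against 0.226% of all genes called and 0.198% called higher. Irg1 differed by 5.60 ± 1.32, Il1rn by 4.57 ± 1.30 and Tnf by 3.66 ± 0.80 (adjusted p = 0.0743, 0.0926 and 0.0601). The Il1b call was lost without any of the 3 ECM-treated B6 libraries or without B6 PE replicate 1 or 2, and Tnf was called too without B6 PE replicate 3. In MRL mice 0 of 9 genes and 0% of all genes were called, with Il1r1 at 0.98 ± 0.30 (adjusted p = 0.0686), and 3 of 9 (Il1rn, Il1r1 and Casp1) and 28.4% of all genes had an unadjusted p below 0.05.

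The control injury and ECM by themselves gave no call among the 9 genes. The SE behind these tests comes from all 24 libraries, so it includes the spread of PE-treated MRL mice, which are in none of them. For Il1rn the SD was 4.45 log2 CPM there, against 0.10 in saline-treated and 0.16 in uninjured MRL libraries. Absence of a call therefore does not show absence of a change. For saline minus uninjured 0 of 9 were called in both strains and 0% of all genes, with unadjusted p below 0.05 for 1 of 9 in B6 mice (Nlrp3, 2.65 ± 0.98) and 0 in MRL mice, beside 12.4% and 3.1% of all genes. In MRL mice Il1b, Il1rn, Irg1 and Tnf lay above the uninjured libraries in all 3 saline-treated ones, by 0.76 to 1.53 on the log2 scale, where 5.97% of all genes lay apart in that direction. For ECM minus saline 0 of 9 were called, against 0.0283% of all genes in B6 and 0.00706% in MRL mice, and 0 had an unadjusted p below 0.05, against 3.99% and 3.55%. MRL minus B6 was called for 0 of 9 in uninjured muscle, after saline and with ECM, against 2.6%, 2.51% and 2.66% of all genes, and 0 had an unadjusted p below 0.05, against 10.9%, 13.3% and 13.4%.

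The other genes of the pathway were taken from a list of 88 symbols in 6 groups, of which 75 were measured. In B6 mice 25 of 75 rose with PE over saline and 0 fell, beside 5.37% of all genes called higher in this comparison. Among genes that IL-1 or TNF induce, 8 of 16 rose, with a median log2 fold change of 3.89 over the 16, and the chemokine Cxcl2, which attracts neutrophils, rose by 7.42 ± 1.36 (SE, adjusted p = 0.0146) and Saa3, an acute-phase protein, by 5.78 ± 1.34 (adjusted p = 0.0244). Cxcl3, another neutrophil chemokine, rose from a zero count in all 3 saline-treated libraries to between 1.40 and 3.44 log2 CPM (adjusted p = 0.00999). Of the inflammasome and pyroptosis genes 9 of 16 rose, with a median of 1.98. These include Gsdmd, which encodes the pore that caspase-1 opens (1.94 ± 0.52, adjusted p = 0.0363), but not the adaptor Pycard (2.02 ± 0.64, adjusted p = 0.066).

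Of the signalling genes 3 of 25 rose, with a median of 0.51, and the adaptor Myd88 was at 1.09 ± 0.33 (adjusted p = 0.0541). Of the receptors 1 of 9 rose, with a median of 0.97, and Il1rap, the partner chain of the IL-1 receptor, was at 1.19 ± 0.38 (adjusted p = 0.0638). Of the itaconate genes 3 of 7 rose, with a median of -0.16. They were Hmox1, Atf3 and Nfe2l2, the last of which encodes the antioxidant factor NRF2 that itaconate is known to activate (1.11 ± 0.30, adjusted p = 0.0379), and they were named after their values were seen. Of 2 further IL-1 family ligands measured, Il1f9 (IL-36 gamma) rose by 4.49 ± 0.87 (adjusted p = 0.0177) and Il33 was at 1.01 ± 0.49 (adjusted p = 0.202), both named for their role as ligands.

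In MRL mice 0 of the 75 and 0% of all genes were called for PE minus saline, with 20 of the 75 at an unadjusted p below 0.05, beside 23.3% of all genes. The median over the 16 induced genes was 0.68. Under PE, 8 of 75 were lower in MRL than in B6 mice and 0 higher, beside 1.74% of all genes called lower, and 6 of the 8 were among the 16 induced genes. The largest of those whose groups did not overlap were Cxcl2 (-5.94 ± 1.36, adjusted p = 0.0173), Saa3 (-5.13 ± 1.34, adjusted p = 0.0391) and Ccl3, a chemokine of macrophages (-5.10 ± 1.05, adjusted p = 0.00771). Pycard was lower as well (-2.70 ± 0.64, adjusted p = 0.022), and it was already at -0.51 to 0.72 log2 CPM in saline-treated MRL against 1.67 to 2.04 in saline-treated B6 mice. Without replicate 2 of PE-treated MRL mice, 36 of 75 were lower and 2 higher, beside 24.6% of all genes called. The count lower was 0 without MRL PE replicate 1 or B6 PE replicate 2 (1.65% and 2.08% of all genes called), 1 without MRL PE replicate 3 (1.89%), 2 without B6 PE replicate 1 (1.67%) and 9 without B6 PE replicate 3 (2.23%). The 25 calls in B6 mice fell to 0 without B6 PE replicate 1 or 2 (0.0494% and 0.0141% of all genes called), to 7 without B6 saline replicate 1 (0.89%) and to 3 without B6 saline replicate 2 or 3 (0.162% and 0.261%), and they were 32 without B6 PE replicate 3 (9.05%). For PE minus ECM in B6 mice 4 of 75 were higher, beside 0.198% of all genes, namely Cxcl3 (at most -2.97 log2 CPM with ECM, adjusted p = 0.0395), Cxcl5 (4.64 ± 0.93, adjusted p = 0.0481), Ptgs2, the inducible cyclooxygenase (4.42 ± 0.72, adjusted p = 0.0294), and Il1f9. This count fell to 0 without any of the ECM-treated B6 libraries and without B6 PE replicate 1 or 2.

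**Figure D4:**
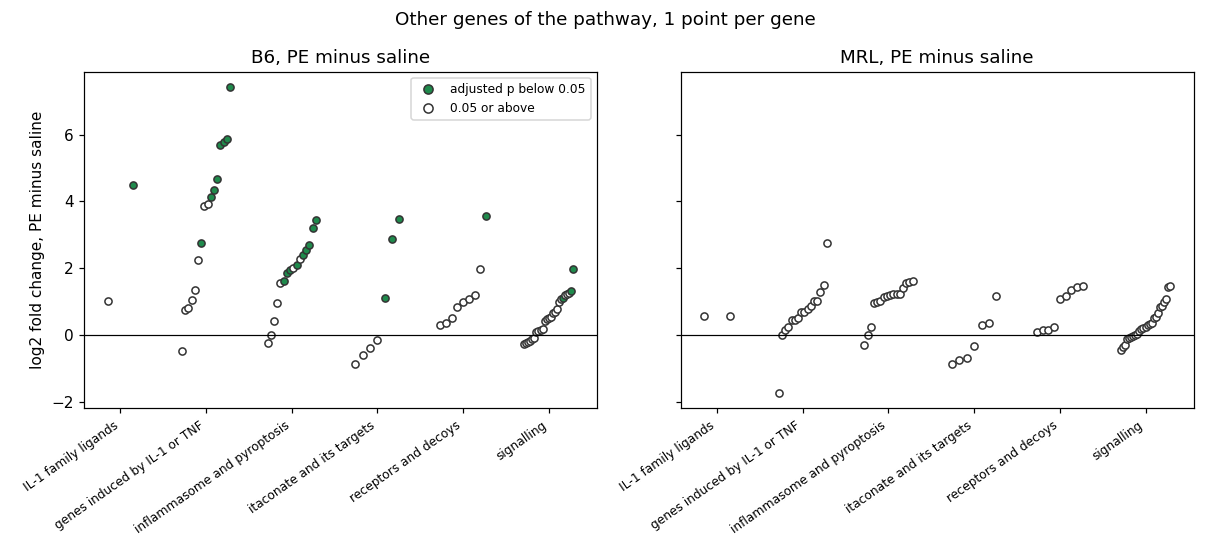
PE minus saline (y axis, log2 fold change) for the 75 other pathway genes measured, 1 point per gene, grouped by list (x axis), in B6 mice (left) and MRL mice (right), with filled points for an adjusted p below 0.05. In B6 mice 25 genes were called, most of them among induced genes and inflammasome genes, and in MRL mice 0.

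Markers of myeloid cells moved with these results. The summed level of the neutrophil list (10 of 16 markers measured, with Ly6g, Mpo and Elane not among them) was 215, 413 and 91.1 CPM in PE-treated B6 libraries against 6.43 to 8.45 after saline, and 14.3, 181 and 19.1 CPM in PE-treated MRL libraries against 9.54 to 16.5. The macrophage list (12 of 13 measured) summed to 3430.3, 6359 and 1821 CPM in PE-treated B6 libraries against 379.8 to 436, and to 309, 5599.7 and 347 CPM in PE-treated MRL libraries against 206 to 575. So replicate 2 of PE-treated MRL mice, which had the high Il1b, Irg1, Tnf, Il1rn and Nlrp3, was also the library with myeloid markers at the level of B6 mice. For PE minus saline in B6 mice 8 of 10 neutrophil and 8 of 12 macrophage markers were called higher, beside 5.37% of all genes. The marker calls are not given with libraries left out. Without B6 PE replicate 1 or 2, 0.0494% and 0.0141% of all genes were called in that comparison. Under PE, 4 of 10 neutrophil markers and 1 of 12 macrophage markers were lower in MRL than in B6 mice, beside 1.74% of all genes called lower. So were 2 of 6 T cell markers measured, Cd3e and Cd3d, and the T cell sum was 10.6, 12.4 and 9.78 CPM in PE-treated B6 against 3.97, 6.42 and 5.04 CPM in PE-treated MRL libraries. This gap was not particular to PE. The T cell sum was 3.11 to 5.66 CPM in uninjured B6 against 1.83 to 2.49 in uninjured MRL libraries. With ECM it was 7.17 to 9.89 against 2.19 to 7.04, and after saline the ranges overlapped (4.16 to 8.94 against 2.23 to 4.52). Among the neutrophil markers S100a9 differed between the strains by -4.77 ± 1.03 (adjusted p = 0.0114). Adipocyte markers went the other way within the MRL group, with 2692, 181 and 1560.0 CPM, while mast cell markers were high in all 3, with 45.0, 31.2 and 41.2 CPM against 9.08, 11.6 and 7.55 in PE-treated B6 mice. Mast cell sums were higher in MRL mice after saline too (20.9 to 27.5 against 5.26 to 9.52 CPM) and with ECM (13.7 to 22.3 against 3.57 to 11.3). In uninjured muscle they were lower in MRL mice (8.47 to 20.6 against 21.5 to 23.6). The authors' flow cytometry, which counts cells in digested muscles rather than RNA, found slightly more neutrophils in MRL than in B6 mice. The neutrophil markers under PE went the other way here. The part of the listed cell types in the differences of the 9 genes was not tested.

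**Figure D5:**
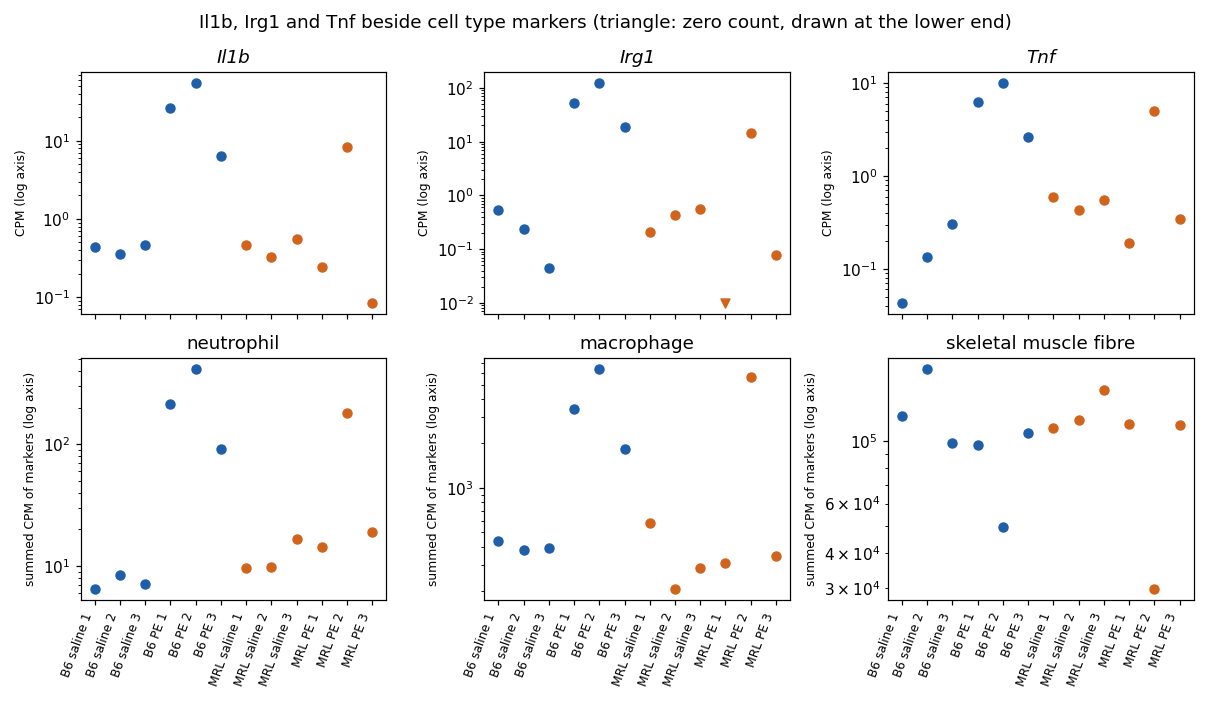
Il1b, Irg1 and Tnf (upper row, CPM on a log axis) and the summed CPM of neutrophil, macrophage and skeletal muscle fibre markers (lower row, log axis) in the saline- and PE-treated libraries of both strains (x axis), with a triangle for a zero count. In PE-treated MRL mice replicate 2 is high for the 3 genes and for neutrophil (181 CPM) and macrophage markers, and low for muscle fibre markers (29728 CPM).

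Over the 24 libraries the 9 genes correlated positively in every pair, with Pearson's r of log2 CPM from 0.50 (Il1rn with Il1r2) to 0.94 (Il1rn with Irg1). The 24 points share their groups and the few PE libraries carry most of the range, since Spearman's rho for the same pairs was 0.25 and 0.80. The genes of the matrix with the pattern most like each member were Cxcl3 for Il1b (r = 0.93), Sp140 for Il1a (0.88), Itgb2, an integrin of leukocytes, for Il1rn (0.98), Litaf for Casp1 (0.97), Vsig8 for Irg1 (0.97, followed by Ccl3 and Cxcl2), Slc7a11, the cystine transporter, for Tnf (0.95), Ncf4, a subunit of the phagocyte oxidase, for Nlrp3 (0.91), Ifitm2 for Il1r1 (0.91) and Siglec1, a macrophage receptor, for Il1r2 (0.86). These correlations are over 24 libraries and carry no test.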

How the data were processed

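The authors quantified poly(A) RNA with kallisto (Ensembl GRCm39 cDNA), summed transcripts to genes with tximport (lengthScaledTPM), kept genes above 1 CPM in at least 3 libraries, scaled with TMM and deposited log2 CPM values with a prior count of 2. A zero count reads -3.65, which implies a mean effective library size of 25149678 reads, so 3 counts correspond to 0.119 CPM (-2.33 on the log2 scale), for counting error only. Levels are not per length and were not compared between genes. The row without a symbol (1 of 14160) was left out.

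Groups were compared with limma 3.58.1 in R 4.3.3 (1 coefficient per group, all 24 libraries, variance trend, 2-sided, Benjamini-Hochberg over 14159 genes, called below 0.05), since counts for a voom fit were not used here. The procedure was tested on data simulated with 1 spread per gene for all groups. It recovered 65% of changes of 1.5 and 94% of changes of 3 on the log2 scale, with 5 false calls. The changes were placed only in genes with a positive mean log2 CPM over the libraries. Il1b, Il1a, Il1r2, Irg1 and Tnf have a negative mean, so these recovery rates do not cover them. A spread that differs between groups, as in PE-treated MRL mice here, was not simulated. Deviations of same-numbered libraries correlated above 0.1 for all 3 numbers under PE between the strains (0.105, 0.532 and 0.439), which was taken as pairing there, a hint from the data since the labels name no shared batch. Members, gene lists and markers were chosen with earlier results of these data known. From the pathway list, up to 3 called genes per direction and comparison with the largest change and groups apart were named, and others for a role. Likeness was ranked by Pearson's r, leaving out members and predicted genes. Alternatives were other scalings, scales, filters, variance models, weights, samples, a replicate block and leaving out each library. Promoters are from RefSeq (GRCm38.p6), placed in GRCm39 by exact match, and Python 3.11.15 with matplotlib 3.10.9 drew the plots.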

Additional observations from a re-analysis of the deposited data

How the results depend on the processing

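With 3 libraries per group, single libraries decided many calls, and low levels rest on few counts. Leaving out 1 library at a time, the number of the 9 genes called varied (in brackets, the range of the share of all genes called). It ranged from 0 to 7 for MRL minus B6 under PE (1.65% to 24.6%). In B6 mice it was 0 to 7 for PE minus saline (0.0141% to 9.05%) and 0 to 2 for PE minus ECM (0.00706% to 0.374%). For PE minus uninjured in B6 mice it was 6 to 9 (3.76% to 24.3%). The same comparisons in MRL mice gave 0 to 1 (0% to 5.47%), 0 to 2 (0% to 12.3%) and 0 to 4 (0% to 24.2%). The strain difference gave 0 to 5 in PE minus saline (0% to 4.41%) and 0 to 3 in PE minus ECM (0% to 1.9%). Signs turned in MRL mice for PE minus saline, with ranges of -1.17 to 1.67 (Il1b), -0.50 to 0.32 (Il1a), -0.93 to 3.39 (Il1rn), -2.04 to 1.72 (Irg1) and -0.83 to 1.28 (Tnf), where the lowest value is without MRL PE replicate 2. They also turned for Il1r1 in MRL minus B6 under PE (-0.46 to 0.072) and, in the strain difference in PE minus saline, for Il1r1 (-0.10 to 0.44) and Il1r2 (-0.61 to 0.55).

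Library weights (arrayWeights) did not converge, with 0.057 for MRL PE replicate 2 and 56.3 for B6 PE replicate 1. Of the 9 genes, with the share of all genes called in brackets, they called 8 for MRL minus B6 under PE (56.5%), 2 after saline (41.8%) and 1 with ECM (17.0%). In B6 mice they called 2 for saline minus uninjured (33.8%), 2 for ECM minus saline (15.7%) and 9 for PE minus ECM (39.4%), and in MRL mice 3 for PE minus saline (23.3%) and 1 for PE minus ECM (16.3%). For the strain difference they called 2 in ECM minus saline (3.28%), 7 in PE minus saline (30.5%) and 7 in PE minus ECM (13.3%). PE minus saline in MRL mice was then -1.28 for Il1b, -0.49 for Il1a, -0.49 for Il1rn, -2.08 for Irg1 and -0.67 for Tnf. A mean of at least 1 log2 CPM kept only Casp1 and Il1r1 and left 0 calls for MRL minus B6 under PE, and 1, 0 and 2 for PE minus saline, ECM and uninjured in B6 mice. Fitting the compared groups only gave 0 calls for MRL minus B6 under PE, 4 for PE minus ECM in B6 mice and 0 for PE minus uninjured in MRL mice. For PE minus ECM in B6 mice the log2(CPM + 1) scale gave 5, equal totals 0 and quantile normalization 2. For PE minus uninjured in MRL mice quantile normalization, a constant prior variance and the replicate block each gave 0. Under quantile normalization Il1a was -0.16 for PE minus saline in MRL mice, and Il1r2 was 0.046 in the strain difference. The cause was not tested. With the replicate block 2 genes were called for MRL minus B6 under PE, Il1a being lost at an adjusted p = 0.0546, and in a fit of the PE libraries alone with the block, chosen after seeing the data, 0 were. Apart from PE minus uninjured in MRL mice, given above, the block moved no other count of calls on the 9 genes.

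Equal totals moved the median log2 fold change of all genes to 0.27 for PE minus saline and 0.43 for PE minus uninjured in B6 mice, 0.31 in MRL mice for PE minus saline and -0.13 for MRL minus B6 under PE, and quantile normalization to -0.16 for PE minus saline in B6 mice. Counts over all genes also moved. For MRL minus B6 under PE they were 474, against 113 with the compared groups only, 242 with the filter and 7996 with weights. For PE minus saline in B6 mice they were 845 and 9640 with weights, and in MRL mice 0 and 3303. For PE minus ECM in B6 mice 32 became 121 on the log2(CPM + 1) scale, 0 with the filter, 3 with equal totals and 166 with the compared groups only. For PE minus uninjured in MRL mice 1377 became 9 with the block and 0 with a constant prior variance, quantile normalization or the compared groups only. For single genes 656 of the alternative values kept direction and call, 75 lost the call, 48 gained it and 26 turned sign.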
